A study of Saccharomyces cerevisiae with 6 samples.

Results

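The mRNAs of 10 genes for late maturation of the small ribosomal subunit were followed in 6 *Saccharomyces cerevisiae* cultures: *RIO1*, *RIO2*, *NOB1*, *PNO1*, *DIM1*, *TSR1*, *LTV1*, *ENP1*, *FAP7* and *HRR25*. These genes were chosen by their role, with earlier results of these data known, and make up 10 of the 7445 features in the count table. All cultures were of a single *RIO1-AID* strain (RIO1-AID::KanMX4, PADH1-OsTIR1-9myc::URA3) in the W303 background (W303-1A in the study's methods), grown in YPDA. In this strain Rio1 carries a degron that the plant receptor OsTIR1, expressed from the *ADH1* promoter, leads to degradation once auxin is present. Of the 6 cultures, 3 were treated with a mock and 3 with auxin, given in the labels as 500 µM for 1 h, while the study's methods describe a dose lowered within the hour. A protocol field in the labels names auxin for every culture, and the treatment field was used to tell the groups apart. All cultures carry the degron and OsTIR1, and no strain without the degron was analysed here under auxin, so an effect of auxin itself cannot be told apart from that of Rio1 depletion. The degron acts on the protein, so that the level of *RIO1* mRNA does not check the labels.

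The precursor of the small subunit (pre-40S) leaves the nucleolus with an almost mature rRNA and a set of bound assembly factors, and completes its maturation in the cytoplasm. There, Ltv1, Enp1, Tsr1, Rio2 and Dim1 are released, the endonuclease Nob1 cuts the 20S pre-rRNA to 18S rRNA, and Rio1 binds the last pre-40S particles and promotes the departure of Nob1 and its partner Pno1. The casein kinase Hrr25 phosphorylates Ltv1 and Enp1, and the ATPase Fap7 acts with the ribosomal protein Rps14 in the last steps. In yeast, many genes for ribosome assembly factors share a pair of promoter motifs, PAC (polymerase A and C) and RRPE (ribosomal RNA processing element), which the repressors Dot6 and Tod6 and the factor Stb3 bind, respectively.

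Between 110119744 and 125303818 counts were obtained per culture, and 6397 features passed the filter on low counts and were tested. These totals exceed the number of mapped read pairs per sample that the study states, and the reason is not known. Levels are given as CPM, the counts per 1000000 of the library total after TMM scaling, a scaling that takes most features to be unchanged. The TMM factors differed by group, at 0.902 to 0.928 in the mock-treated and 1.086 to 1.093 in the auxin-treated cultures. Scaling by total counts instead shifted the log2 fold change of the median feature to 0.25, and scaling by the counts of the reference mRNA *ACT1* (actin) shifted it to 0.31, so changes are read relative to these values. *ACT1* itself measured 4936, 5136 and 4718 CPM with the mock and 4031, 4042 and 3875 CPM with auxin. In bulk cultures scaled in this way, a change in mRNA per cell cannot be told apart from a change in the share of cells that contain the mRNA. The study lists a strain of this genotype as *MATa*. As a check of the mating type alone, 5 *MATa*-specific mRNAs summed to 1774 to 1897 counts per 1000000 total counts with the mock and to 2120.3 to 2209 with auxin, against 2.12 to 3.26 in all cultures for 3 *MATalpha*-specific mRNAs. Within the *MATa* sum, *MFA1* was lower in every auxin-treated culture, *MFA2*, *STE2* and *STE6* were higher, and *BAR1* overlapped between the groups.

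The stretches upstream of the members were searched for PAC and RRPE and are shown first. Whether these motifs bear on the changes was not tested. The search was added after the members' counts had been seen. The 300 bases before each start codon were read from the reference assembly R64 (strain S288C, whereas the cultures are W303) and searched on both strands for GATGAG (PAC) and AAAATTT (RRPE). The motifs do not overlap each other, but AAAATTTT holds an RRPE match on each strand. Each line gives 80 bases on the strand of the gene, with the matches in capitals (CTCATC and AAATTTT are matches on the other strand).
RIO1: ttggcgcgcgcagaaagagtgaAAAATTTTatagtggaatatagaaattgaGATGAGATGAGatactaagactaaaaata
RIO2: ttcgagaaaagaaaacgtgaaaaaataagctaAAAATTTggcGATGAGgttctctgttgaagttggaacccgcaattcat
NOB1: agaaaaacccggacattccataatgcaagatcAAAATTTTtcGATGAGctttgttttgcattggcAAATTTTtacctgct
PNO1: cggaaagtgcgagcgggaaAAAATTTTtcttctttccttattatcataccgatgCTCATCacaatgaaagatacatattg
DIM1: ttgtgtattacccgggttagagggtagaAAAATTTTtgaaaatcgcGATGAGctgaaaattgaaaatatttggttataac
TSR1: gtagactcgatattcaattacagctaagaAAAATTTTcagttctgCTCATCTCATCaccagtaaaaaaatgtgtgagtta
LTV1: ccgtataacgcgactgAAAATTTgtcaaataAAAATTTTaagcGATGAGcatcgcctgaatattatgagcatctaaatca
ENP1: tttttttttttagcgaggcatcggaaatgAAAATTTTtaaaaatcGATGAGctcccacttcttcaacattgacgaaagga
FAP7: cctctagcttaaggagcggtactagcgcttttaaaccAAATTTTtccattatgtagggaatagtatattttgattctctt

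These stretches lie at chrXV:550306-550385 (*RIO1*, minus strand), chrXIV:255123-255202 (*RIO2*, plus), chrXV:431766-431845 (*NOB1*, minus), chrXV:606246-606325 (*PNO1*, minus), chrXVI:38934-39013 (*DIM1*, plus), chrIV:341460-341539 (*TSR1*, plus), chrXI:176627-176706 (*LTV1*, plus), chrII:714541-714620 (*ENP1*, minus) and chrIV:164259-164338 (*FAP7*, minus). Both motifs were found in 8 of the 10 windows, and that of *NOB1* held a further match of each outside the stretch shown. *FAP7* held RRPE alone, at position -259 from the start codon and thus beyond the 247 bp that separate *FAP7* from the divergent *CDC36*, and *HRR25* held neither. In all 8 windows with both motifs, the RRPE match closest to PAC lay upstream of it, with 9 bp (*NOB1*) to 34 bp (*PNO1*) between their starts. The PAC match of this pair began between position -188 (*RIO2*) and position -88 (*RIO1*). Over 6001 protein-coding genes, 19.1% of such windows held PAC, 24.4% held RRPE and 7.53% held both. A match is a string of letters and not a measured binding site.

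**Figure D1:**
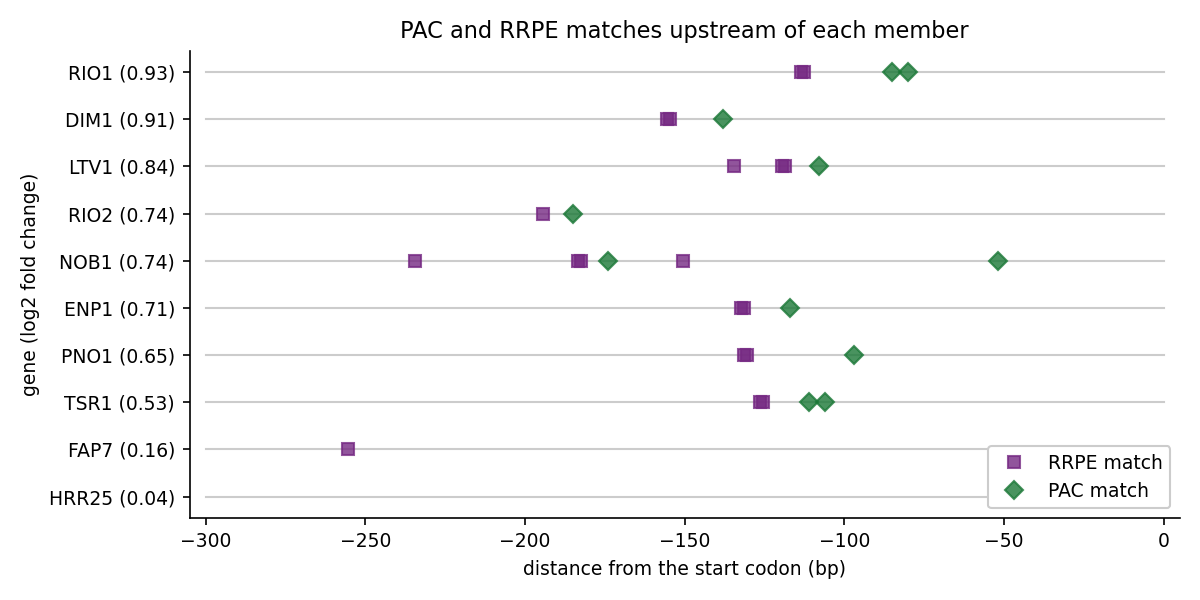
Position of each PAC match (green diamonds) and RRPE match (purple squares) in the 300 bp upstream of the start codon (x axis, distance in bp) of the 10 genes (y axis), with the log2 fold change of each gene in brackets. The 8 genes at the top, with changes of 0.53 to 0.93, hold both motifs, *FAP7* holds RRPE alone and *HRR25* holds neither.

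In the auxin-treated cultures, 8 of the 10 mRNAs rose, by 1.44-fold (*TSR1*) to 1.91-fold (*RIO1*), and none fell. The mRNAs of the ATPase gene *FAP7* and the casein kinase gene *HRR25* did not pass the test. At an adjusted p of at most 0.05 (edgeR quasi-likelihood test, Benjamini-Hochberg over all 6397 features), 77.0% of all features were called, 38.5% as higher (2462) and 38.5% as lower (2465), so that a call on its own was common in this comparison. No member also reached a log2 fold change of 1 in either direction, a limit passed together with the adjusted p by 10.3% of all features. For 8 members, all CPM values with auxin exceeded all of those with the mock, which was also so for 39.3% of all features. The median log2 fold change was 0.72 over the 10 members and 0.00 over all tested features, for which the quartiles were -0.24 and 0.32. Added together, the members took 936, 963 and 972 CPM with the mock and 1411, 1415 and 1419 CPM with auxin, a 1.48-fold difference.

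**Figure D2:**
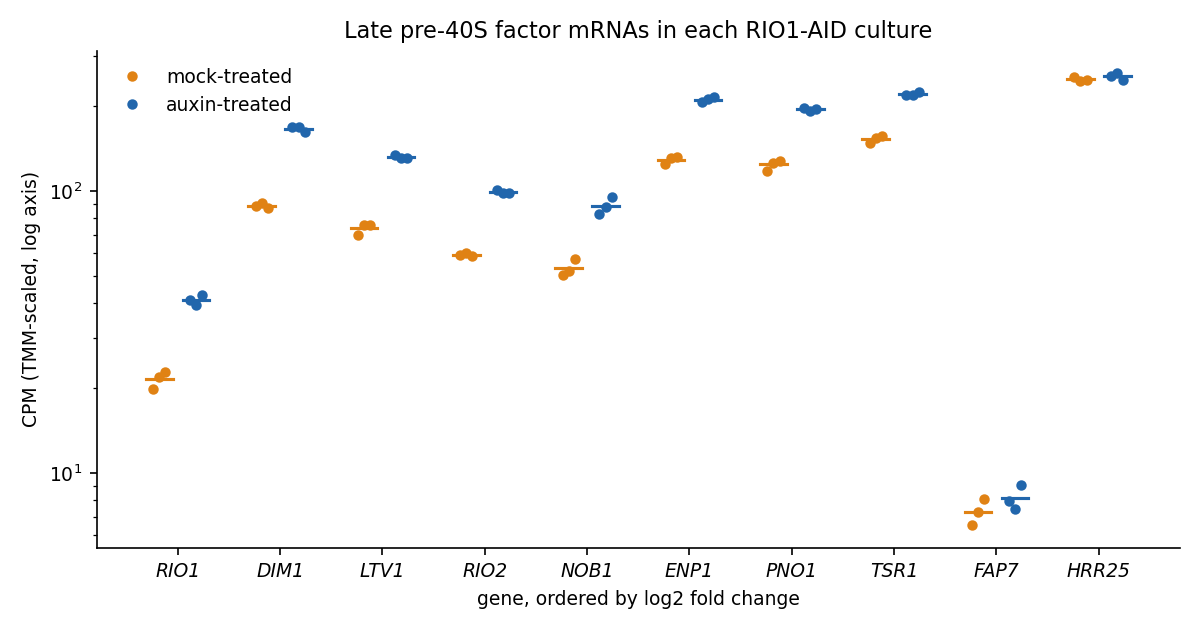
CPM (TMM-scaled, log axis) of the 10 genes in each culture, ordered by log2 fold change. Points are cultures (orange, mock-treated, n = 3, blue, auxin-treated, n = 3) and short lines are means, and the 2 groups overlap in *FAP7* and *HRR25* alone.

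The RIO kinases are atypical protein kinases that act on pre-40S particles as ATPases. *RIO1* (YOR119C, chrXV:548792-550246, minus strand) is a gene of 1455 bp in a single coding exon. Its mRNA measured 19.8, 21.9 and 22.8 CPM in the mock-treated cultures and 40.9, 39.4 and 42.7 CPM in the auxin-treated ones. The groups lay well apart, the lowest auxin-treated culture being 1.73-fold above the highest mock-treated one. The log2 fold change of *RIO1* was 0.93 ± 0.05 (SE, n = 3 and 3, adjusted p = 1.8e-07), with a 95% interval of 0.81 to 1.05 that holds the fold limit of 1. The depth behind these values was 2136 to 2478 counts with the mock and 4957 to 5507 with auxin. *RIO2* (YNL207W, chrXIV:255353-256630, plus strand), whose product binds pre-40S before Rio1 does, measured 59.1, 60.2 and 58.8 CPM with the mock and 101, 98.2 and 97.9 CPM with auxin. Its mock-treated cultures differed less, relative to their mean, than those of any other member, and the log2 fold change was 0.74 ± 0.03 (SE, adjusted p = 7.5e-09).

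The endonuclease gene *NOB1* (YOR056C, chrXV:430247-431626, minus strand) measured 50.3, 51.8 and 57.1 CPM with the mock and 82.7, 87.5 and 94.9 CPM with auxin. Replicate 3 was the highest of its group in both conditions, and the groups did not overlap. The log2 fold change of *NOB1* was 0.74 ± 0.06 (SE, adjusted p = 1.7e-06). *PNO1* (YOR145C, chrXV:605347-606171, minus strand) encodes the KH-domain protein that sits at the end of the 20S pre-rRNA beside Nob1. It measured 118, 126 and 128 CPM with the mock and 196, 192 and 195 CPM with auxin, a log2 fold change of 0.65 ± 0.03 (SE, adjusted p = 5.7e-08). The 95% intervals of the pair, 0.61 to 0.87 for *NOB1* and 0.58 to 0.72 for *PNO1*, overlapped. *DIM1* (YPL266W, chrXVI:39121-40077, plus strand), the dimethylase of adenosines near the end of 18S rRNA, had 88.3, 90.3 and 86.8 CPM with the mock and 169, 168 and 162 CPM with auxin. Its lowest auxin-treated culture was 1.80-fold above its highest mock-treated one, the widest gap among the members, with a log2 fold change of 0.91 ± 0.03 (SE, adjusted p = 3.4e-09).

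Tsr1, Ltv1 and Enp1 occupy the surface of pre-40S, where Tsr1, related to translational GTPases, blocks the binding of translation factors and Ltv1 and Enp1 hold the beak together with Rps3. *TSR1* (YDL060W, chrIV:341619-343985, plus strand) had the smallest change of the 8 mRNAs that rose. It measured 148, 154 and 157 CPM with the mock and 218, 219 and 224 CPM with auxin, a log2 fold change of 0.53 ± 0.03 (SE, adjusted p = 1.1e-07). *LTV1* (YKL143W, chrXI:176781-178172, plus strand) measured 69.8, 75.5 and 75.5 CPM with the mock and 134, 131 and 131 CPM with auxin. Its log2 fold change was 0.84 ± 0.03 (SE, adjusted p = 1.7e-08), with a 95% interval of 0.77 to 0.92. *ENP1* (YBR247C, chrII:713004-714455, minus strand) measured 124, 131 and 132 CPM with the mock and 206, 211 and 215 CPM with auxin, a log2 fold change of 0.71 ± 0.03 (SE, adjusted p = 2.7e-08). In both genes the groups lay apart. The intervals of *TSR1* (0.46 to 0.59) and *LTV1* did not overlap, although the difference between them was not tested on its own.

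*FAP7* (YDL166C, chrIV:163449-164042, minus strand) was the least abundant member, with 703 to 822 counts in the mock-treated and 939 to 1164 in the auxin-treated cultures. It measured 6.52, 7.24 and 8.08 CPM with the mock and 7.92, 7.46 and 9.03 CPM with auxin, and the groups overlapped. The log2 fold change of *FAP7* was 0.16 ± 0.09 (SE, adjusted p = 0.14), with a 95% interval of 0.97- to 1.29-fold. Without mock replicate 3 it came to 0.23 and passed the test (adjusted p = 0.037), while without mock replicate 1 or auxin replicate 3 it came to 0.08 (adjusted p = 0.42 and 0.46). With a block for the replicate number, *FAP7* passed the test at 0.16 (adjusted p = 0.025). *HRR25* (YPL204W, chrXVI:164276-165760, plus strand) has further roles in vesicle traffic, DNA repair and meiosis. It measured 253, 245 and 247 CPM with the mock and 255, 261 and 248 CPM with auxin. These ranges overlapped, with a log2 fold change of 0.04 ± 0.03 (SE, adjusted p = 0.22) and a narrow 95% interval of -0.02 to 0.10. Under total-count scaling both genes passed the test as higher, at 0.41 for *FAP7* and 0.29 for *HRR25*, beside the shift of 0.25 of the median feature, and under *ACT1* scaling at 0.47 and 0.34 beside a shift of 0.31.

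**Figure D3:**
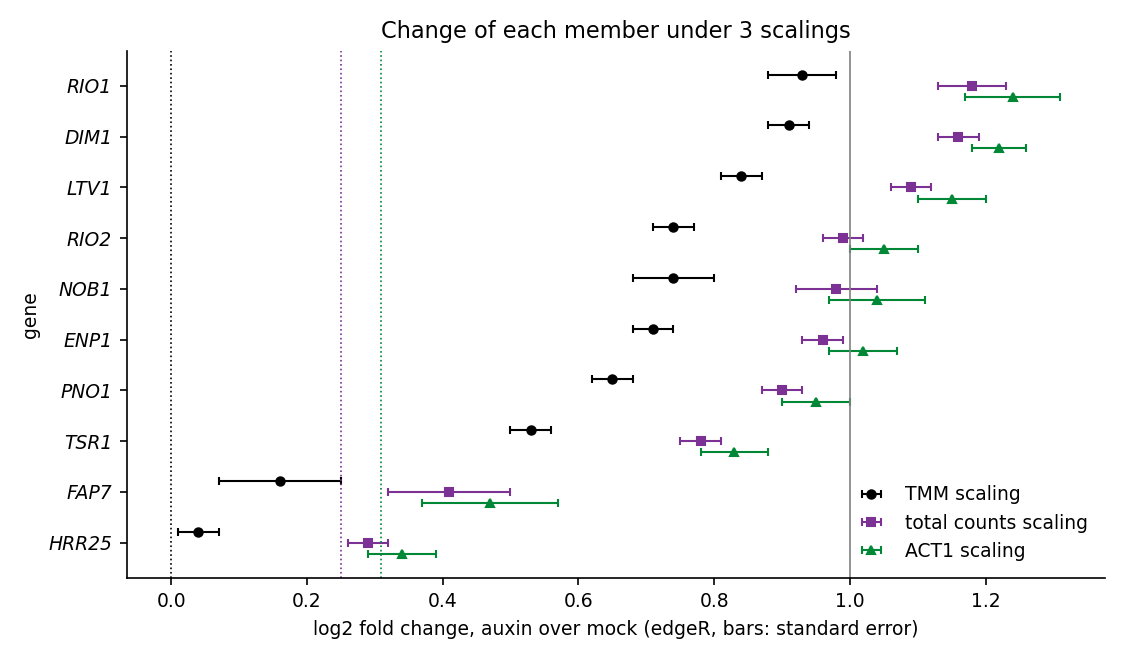
Log2 fold change of each gene (x axis, auxin over mock, bars are the edgeR standard error) with scaling by TMM (circles), total counts (squares) and *ACT1* counts (triangles). Dotted lines mark the median of all tested features under each scaling (0.00, 0.25 and 0.31) and the grey line the fold limit of 1, which 0, 3 and 6 genes passed.

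The fold limit depended on the scaling, since *RIO1*, *DIM1* and *LTV1* passed it under total-count scaling and *RIO2*, *NOB1* and *ENP1* as well under *ACT1* scaling. To compare the members without any scaling between cultures, the counts of each were divided by the summed counts of the other 9 in the same culture (for genes other than *RIO1*, this was added after the counts had been seen). *RIO1* came to 2.16%, 2.33% and 2.40% of the other 9 with the mock and to 2.98%, 2.86% and 3.10% with auxin. All auxin-treated cultures lay above the mock-treated ones, by 0.38 on the log2 scale (two-sided exact permutation test, p = 0.1, the smallest p that 3 against 3 cultures allow). The sum is weighted towards the abundant members, and the median of the changes in the ratio of *RIO1* to each of the 9 was 0.22, a value added after the data were seen. The planned check, the median of the 9 ratios in each culture, changed by 0.02 (exact p = 0.8). In all 6 cultures this median was the ratio to *DIM1*. The rise of *RIO1* relative to the other members thus depended on how they were summarised. Against single members, the *RIO1* ratio ranged from 0.224 to 0.262 over *DIM1* with the mock and from 0.234 to 0.263 with auxin, ranges that overlapped. Over *HRR25* it ranged from 0.0784 to 0.0922 and from 0.151 to 0.172, ranges that lay apart by 0.89 on the log2 scale in the mean (exact p = 0.1, adjusted over 9 ratios 0.129). The ratio of *RIO1* was higher in every auxin-treated culture than in every mock-treated one for 7 of the 9 members, *DIM1* and *LTV1* being the exceptions.

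Within the set, *HRR25* fell from 34.0% to 36.9% of the other 9 with the mock to 21.2% to 22.6% with auxin, and *FAP7* from 0.701% to 0.838% to 0.530% to 0.640%. In both, all auxin-treated cultures lay below the mock-treated ones. The shares of *DIM1* (0.39), *LTV1* (0.30), *RIO2* (0.19), *ENP1* (0.17) and *PNO1* (0.10) were higher with auxin on the log2 scale with no overlap, and those of *NOB1* (0.18) and *TSR1* (-0.04) overlapped. Over the 10 ratios the exact p was 0.1 or 0.2, with adjusted values of 0.125 and 0.2, none of which can pass 0.05 in this design. A share within the set shows unequal change and not that a gene was itself lower.

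**Figure D4:**
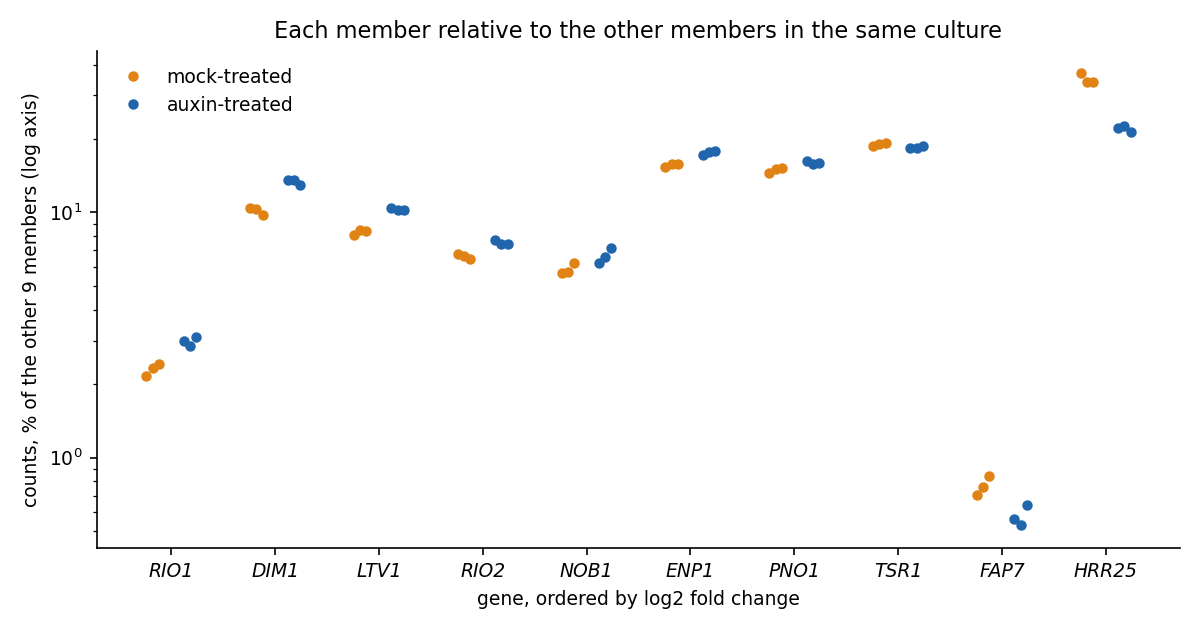
Counts of each gene as a percentage of the summed counts of the other 9 genes in the same culture (log axis), in the mock-treated (orange, n = 3) and auxin-treated (blue, n = 3) cultures. *HRR25* and *FAP7* sit lower with auxin, *NOB1* and *TSR1* overlap between the groups, and the remaining genes sit higher.

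Levels between genes were compared per kilobase of coding length (RPKM from the TMM-scaled CPM). With the mock, the order was *HRR25* (167), *PNO1* (151), *DIM1* (92.4), *ENP1* (88.8), *TSR1* (64.6), *LTV1* (52.9), *RIO2* (46.4), *NOB1* (38.5), *RIO1* (14.8) and *FAP7* (12.3 RPKM). The ranges of *DIM1* and *ENP1* overlapped, while those of *RIO1* and *FAP7* met at 13.6 RPKM. With auxin, *PNO1* (236) stood first, followed by *DIM1* (174), *HRR25* (172), *ENP1* (145), *LTV1* (94.7), *TSR1* (93.1), *RIO2* (77.6), *NOB1* (59.9 to 68.8 over its cultures), *RIO1* (28.2) and *FAP7* (13.7 RPKM). Here *DIM1* and *HRR25*, and *LTV1* and *TSR1*, were not apart beyond their ranges. *RIO1* ranked ninth of the members in both conditions.

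Other factors of the same pathway were read from lists of the field, whose membership was set with earlier results of these data known. Of 17 other pre-40S factors, 15 rose and 2 fell, with a median log2 fold change of 0.38, against 38.5% higher and 38.5% lower among all features. The highest was *PXR1*, a G-patch activator of the helicase Prp43, with 27.0, 30.0 and 30.8 CPM with the mock and 61.0, 57.4 and 64.6 CPM with auxin (log2 fold change 1.06 ± 0.06, SE, adjusted p = 1.2e-07). The lowest was *HBS1*, which with Dom34 splits stalled or empty ribosomes, at 75.6, 79.1 and 78.4 CPM against 67.4, 66.1 and 71.1 CPM (-0.19 ± 0.03, adjusted p = 0.00051). *SQS1*, another Prp43 activator, fell by 0.08 on the log2 scale (adjusted p = 0.035). It was named after its value was seen, and under total-count scaling neither gene was called lower (0.06 for *HBS1* and 0.17 for *SQS1*), with 16 of the 17 called higher. Over all 6397 features, that scaling called 4131 higher and 1072 lower.

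The earlier and parallel steps moved in the same direction. Among 54 genes of the SSU processome and 90S particle, which assemble the small subunit in the nucleolus, 53 rose with a median of 0.65. Beside this and the counts that follow, 38.5% of all features were called higher and 38.5% lower. *DHR2*, an RNA helicase gene, was the highest (64.9 to 172 CPM in the mean, 1.40 ± 0.03, adjusted p = 6.7e-10), and *UTP22* did not pass the test (561 and 546 CPM, -0.04 ± 0.03, adjusted p = 0.24), although all 54 were called higher under total-count scaling. All 52 genes for assembly of the large subunit rose, with a median of 0.68, from 0.25 for *RIA1* (*EFL1*), the GTPase that releases Tif6, to 0.99 for *CGR1*. In contrast, all 56 genes for proteins of the 40S subunit fell, with a median of -0.99. Under total-count scaling 55 were called lower, the exception being *RPS14B*, while 4131 of all 6397 features were called higher and 1072 lower. *RPS3*, whose product is bound by Ltv1, fell from 948, 1063 and 1111 CPM to 290.2, 289 and 329 CPM (-1.78 ± 0.07, adjusted p = 1.1e-08), and *RPS14B*, a paralog for the partner of Fap7, from 246, 269 and 268 to 233, 227 and 231 CPM (-0.18 ± 0.04, adjusted p = 0.0012). The direction of *RPS14B* depended on the scaling, with 0.07 under total-count scaling (adjusted p = 0.071) and 0.13 under *ACT1* scaling (adjusted p = 0.028). Many of these genes are near-identical pairs, between which reads may be lost or divided, so their single values are uncertain.

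**Figure D5:**
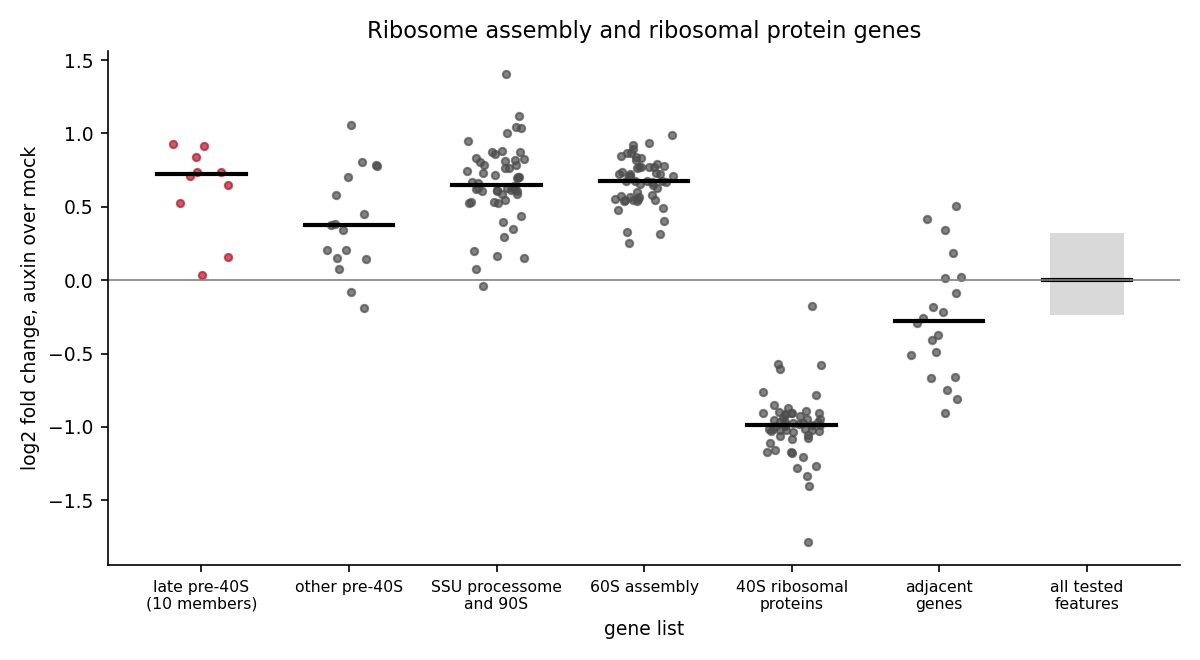
Log2 fold change (y axis, auxin over mock, TMM scaling) of the genes of each list (points) with the list's median (black line), and the interquartile range of all tested features (grey bar, -0.24 to 0.32). The assembly factor lists have medians of 0.38 to 0.72 and the 40S ribosomal protein genes of -0.99.

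*HRR25* is one of 4 casein kinase 1 genes in yeast. Of the other 3, *YCK1* fell from 257, 249 and 253 CPM to 205, 206 and 201 CPM (-0.31 ± 0.02, adjusted p = 1.4e-06), while *YCK2* (-0.03 ± 0.02, adjusted p = 0.25) and *YCK3* (0.02 ± 0.02, adjusted p = 0.54) did not pass the test. Under total-count or *ACT1* scaling, 2 of the 3 were called higher and none lower. Of all 6397 features, these scalings called 4131 and 4316 higher, and 1072 and 796 lower. The longest stretch of *HRR25* resembling another gene was 450 bp at 64.4% identity, in *YCK1*. No member overlapped another gene annotated in RefSeq R64. The counts may rest on a wider annotation, in which overlaps were not checked.

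The features whose CPM over the 6 cultures were closest to the *RIO1* pattern, by Euclidean distance of log2(CPM + 0.5) after centring each feature on its mean, were *RRP1* (0.0475), *ACL4* (0.0658) and *UTP11* (0.0701). *RRP1* had 28.4, 30.6 and 32.1 CPM with the mock and 57.9, 54.1 and 60.8 CPM with auxin. Its likeness to *RIO1* across the replicates follows from this choice by distance and is not a further result. Among the members, *LTV1* (0.144) and *DIM1* (0.198) were closest to *RIO1*, and *FAP7* (0.947) and *HRR25* (1.10) farthest. Counting *RIO1* itself, 28 features of all those tested lay nearer than *LTV1* and 79 nearer than *DIM1*. For *FAP7* and *HRR25* these numbers were 2050 and 2887. Many features outside the set were thus nearer to *RIO1* than its fellow members.

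The motifs shown above for the members were also counted in the lists and over all tested genes, a comparison added after the members' values were known. Both motifs were present in 81.5% of the 54 processome and 90S windows, 86.5% of the 52 windows of large subunit factors, 58.8% of the 17 of other pre-40S factors and 1.79% of the 56 of 40S ribosomal protein genes, against 7.53% of all. Of the 450 tested genes with both motifs, 74.0% were called higher and 14.4% lower, with a median log2 fold change of 0.41. These 450 include the 8 members and the list genes that hold both motifs, and were not counted without them. With PAC alone, 42.9% of 639 genes were called higher and 35.5% lower, with a median of 0.03. With RRPE alone, the shares were 37.4% and 39.5% of 994 genes, with a median of 0.00. With neither motif they were 29.0% and 46.6% of 3727, with a median of -0.08. Total-count scaling gave medians of 0.66 (both), 0.28 (PAC alone), 0.25 (RRPE alone) and 0.17 (neither). Over all tested features the share was 38.5% in each direction. That wider set also holds features that are not nuclear protein-coding genes in RefSeq R64, noncoding and mitochondrial ones among them. These classes leave such features out. Among the members, the 8 with both motifs are the 8 that rose, a contrast with only 2 other genes. A link between motifs and change was not tested.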

How the data were processed

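RNA was isolated from 6 cultures (3 mock, 3 auxin; separate biological repeats per the labels), rRNA was depleted and directional paired-end libraries were sequenced. The authors trimmed the reads with Trimmomatic, aligned them to R64 (sacCer3) with STAR and deposited its raw counts per gene, as whole numbers without normalization. Adaptors with molecular identifiers were used, and the study mentions their use in the analysis. The annotation release, and whether duplicates were removed before counting, are not given in the sources used here. Columns were assigned to cultures by name, with the digit taken for the repeat and a trailing letter for auxin.

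The deposited counts were fitted across 6397 features in edgeR 4.0.16 (R 4.3.3; filterByExpr, TMM, glmQLFit, glmQLFTest, condition only, Benjamini-Hochberg). The standard error is the log2 fold change divided by the square root of F, and the median was 0.0369. Calls used an adjusted p of 0.05, and with it a log2 fold change of 1. Named genes are the members, the highest and lowest of each list, the casein kinase 1 genes, the neighbours of *RIO1*, the 3 features nearest to it and *ACT1*. The text says so where a gene outside this rule was picked with its value in view (*SQS1*, *RPS29B*, *RPC25*). Alternatives were RLE, upper-quartile, total-count and *ACT1* scaling, other filters, DESeq2 1.42.0, glmTreat, a replicate block and leaving out each culture. Members and lists were chosen with earlier results of these data known. The motif search, the 95% intervals and the ratios other than that of *RIO1* to the other 9 members were added after the members' counts had been seen. Sequences and positions come from RefSeq R64, whose gene spans hold no UTRs.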

Additional observations from a re-analysis of the deposited data

How the results depend on the processing

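The 8 members called higher stayed past the adjusted p in all 14 alternatives that tested for any change, and no member changed sign. The glmTreat fit, which tests for a log2 fold change beyond 1, called 0 members and 344 of all 6397 features. Under total-count scaling 3 members passed the fold limit and under *ACT1* scaling 6, against 0, and *FAP7* came to 0.41 and 0.47 and *HRR25* to 0.29 and 0.34. Of all 6397 features, 4131 and 4316 were called higher under these scalings, and 1072 and 796 lower. Under the same scalings, the medians became 0.63 and 0.68 for other pre-40S factors, 0.90 and 0.96 for processome genes, 0.93 and 0.98 for large subunit factors, -0.74 and -0.68 for 40S proteins, 0.22 and 0.27 for casein kinases (2 higher and 0 lower in both) and -0.03 and 0.03 for the 20 adjacent genes (7 higher and 8 lower, 7 and 7). *ACT1* scaling called 1 gene for a 40S protein higher. Other pre-40S factors called lower numbered 0 under both scalings, and 1 under upper-quartile scaling and with 10 counts in every culture. The *RIO1* ratio moved from 0.38 to 0.02 in the planned check with the median of single ratios, which is the ratio to *DIM1* by the abundance of the members. It was 0.22 as the median of its 9 changes, a value added after the data were seen. A replicate block gave 9 members higher, with *FAP7* at 0.16 (adjusted p = 0.025), and 5159 features called against 4927. Deviations of same-numbered cultures correlated at 0.35, 0.07 and 0.52, and those of differently numbered ones at -0.53 to 0.34. These values do not settle whether the numbers pair the samples, and the main fit used no block. Whether *FAP7* was called depended on this choice. Leaving out each culture in turn gave 8 to 9 members higher, *FAP7* at 0.08 to 0.23, the *RIO1* ratio at 0.33 to 0.41, and 1 to 2 other pre-40S factors lower with a median of 0.33 to 0.39. Depth limits *FAP7* most, at 703 counts in the lowest culture.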

Other observations

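The genes adjacent to the members on the chromosome did not share their direction. Of 20 adjacent genes, 4 were higher, 14 were lower and 2 did not pass the test, with a median log2 fold change of -0.28. Over all tested features, 38.5% were called higher and 38.5% lower. Neighbours and distances are those of the RefSeq R64 reference, which lacks the degron and the KanMX4 marker that this strain carries at *RIO1*. Next to *RIO1*, the convergent *RTC5* (231 bp away) measured 61.5, 64.9 and 65.0 CPM with the mock and 64.4, 64.5 and 65.5 CPM with auxin (0.02 ± 0.03, SE, adjusted p = 0.5). The divergent *GCY1* (867 bp away), an aldo-keto reductase gene, measured 26.0, 22.9 and 24.1 against 21.5, 21.3 and 21.5 CPM (-0.18 ± 0.05, adjusted p = 0.0052), and was not called under total-count scaling (0.07, adjusted p = 0.28), under which *RTC5* rose (0.27, adjusted p = 1.2e-05). The 2 pairs that follow were chosen after their values were seen. *RPS29B*, for a 40S protein and divergent from *TSR1* at 820 bp, fell from 418 to 223 CPM in the mean (-0.91 ± 0.03, adjusted p = 1.4e-08), whereas *TSR1* rose. *RPC25*, for an RNA polymerase III subunit and divergent from *LTV1* at 299 bp, rose from 21.8 to 29.1 CPM (0.41 ± 0.04, adjusted p = 3.1e-06), as *LTV1* did. Under total-count scaling, 7 adjacent genes were higher and 8 lower, and the median was -0.03. Of all 6397 features, 4131 were then higher and 1072 lower, with a median of 0.25.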
